A study of Mus musculus with 12 samples.

Results

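The diet response of livers from mice labelled as hepatocyte knockouts of Pld1, the gene of phospholipase D1, was examined: 3 libraries from knockout mice on a high-fat diet (HFD) were set against 3 libraries from knockout mice on chow, 6 of the 12 libraries in the series. The groups were taken from the genotype and diet in the sample labels, and 14778 of the 53465 gene IDs in the count table had enough reads to be tested. The series crossed genotype with diet in mouse liver RNA sequencing, with 3 libraries in each of 4 groups. The knockout (KO) mice are called hepatocyte-specific Pld1 knockouts in the series description, whereas their genotype label says knockdown. The controls, floxed for Pld1, are labelled as wild type. The groups used here are KO livers on HFD, KO livers on chow, control livers on HFD and control livers on chow, and the HFD was given for 20 weeks per the series description. The labels used here do not give the Cre driver, the deleted exons, the age of the mice, or whether each library is its own animal. The p-values set the difference between groups against the spread between libraries of a group. That spread may be technical, so the p-values may not speak for differences between mice.

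Phospholipase D1 cleaves phosphatidylcholine to phosphatidic acid, a signalling lipid and a precursor of triglyceride. On a fat-rich diet the liver takes up and stores fatty acids in lipid droplets and oxidises them in mitochondria and peroxisomes, and the nuclear receptors PPARα and PPARγ switch on many of the genes of oxidation and of storage. The liver also secretes acute phase proteins when exposed to inflammatory cytokines, keeps a circadian clock that feeding can shift, and carries sex-specific programs set by growth hormone through STAT5.

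The 6 KO libraries held 19116202 to 21473191 counts and the 12 libraries 18215008 to 22378180. Levels are given in CPM, read counts scaled to a common library size with TMM. Mitochondrially encoded genes took 6.49% to 6.76% of the counts in KO livers on HFD and 5.98% to 6.16% in KO livers on chow. Libraries of a group differed little: over genes of at least 50 CPM in the group, the median coefficient of variation was 2.82% in KO livers on HFD and 2.53% in KO livers on chow. The spread behind each test is that small, so genes with small fold changes were called. Below, "higher", "lower", "rose" and "fell" are used of a diet difference with a Benjamini-Hochberg adjusted p under 0.05 over all tested genes in edgeR's quasi-likelihood test, and log2 fold changes of HFD over chow are given with their standard error.

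Pld1, the targeted gene, was at 2.91, 1.93 and 2.94 CPM in KO livers on HFD, against 3.95, 3.45 and 4.67 CPM in KO livers on chow. In control livers it was at 7.72, 6.48 and 7.19 CPM on HFD, against 11.3, 11.3 and 9.07 CPM on chow. All KO libraries lay below all control libraries, and the 2 diets did not overlap within either genotype. KO against control differed by -1.45 ± 0.16 (log2, adjusted p = 7.54e-09) on HFD and by -1.39 ± 0.14 (adjusted p = 1.09e-09) on chow. The counts cover the whole gene, so transcript from undeleted exons or from other liver cells is included. Within KO livers Pld1 was lower on HFD (log2 -0.62 ± 0.18, adjusted p = 0.00561), and without KO HFD replicate 2 the call was lost (log2 −0.45, adjusted p = 0.0586). The exact two-sided permutation test over the 6 KO libraries gave p = 0.1, the smallest that 3 against 3 allows.

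HFD changed 5412 of 14778 tested genes in KO livers (36.6%), of which 2732 were higher (18.5%) and 2680 lower (18.1%). With each library's trend of level on transcript length and GC content removed, the split was 3301 higher and 2301 lower. The median log2 fold change over all tested genes was −0.0026. The larger changes were mostly falls: 512 genes (3.46%) were higher and 1173 genes (7.94%) lower by at least 1.5-fold, and 208 (1.41%) were higher and 625 (4.23%) lower by at least 2-fold. With the coefficient of variation of each gene fixed at 20% in place of the measured spread, 1102 genes were called, 305 of them higher and 797 lower. Genes of fatty acid oxidation, lipid droplets and bile acid and lipoprotein metabolism and female-biased genes were mostly higher, whereas acute phase proteins, markers of macrophages and neutrophils, and male-biased genes were mostly lower.

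The largest changes were sought among called genes that averaged 5 CPM or more on one of the diets and whose HFD libraries all lay on one side of the chow libraries. Among the 12 largest rises by that rule were 5 cytochrome P450 genes. Cyp2b9, a P450 expressed mainly in female mouse liver, was at 97.3, 98.5 and 100.5 CPM in KO livers on HFD, against 10.5, 12.1 and 12.1 CPM in KO livers on chow, an 8.52-fold difference (log2 3.09 ± 0.053, adjusted p = 1.43e-30). Cyp4a14, a PPARα target that hydroxylates fatty acids at their omega end, reached 1258, 1245 and 1226 CPM on HFD, against 239, 229 and 235 CPM on chow in KO livers, and was 5.31-fold higher (log2 2.41 ± 0.024, adjusted p = 2.02e-37). Its relative Cyp4a10 was at 337, 308 and 285 CPM on HFD, against 62.1, 68.2 and 65.2 CPM on chow in KO livers. In each of these genes the 3 HFD libraries lay above the 3 chow libraries, as the rule required, and the gap was wide. Cyp2a22 and the steroid hydroxylase gene Cyp17a1 were the other P450 genes in this group, with log2 changes of 2.998 ± 0.19 and 1.92 ± 0.057. Reads of closely related P450 genes could have been counted in either copy, so the split within the Cyp2a, Cyp2b, Cyp2c and Cyp4a families is uncertain.

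Rgs16, a brake on G protein signalling, was at 189, 201 and 201 CPM in KO livers on HFD, against 29.6, 29.9 and 28.6 CPM in KO livers on chow, a 6.69-fold difference (adjusted p = 2.45e-31). The aspartic protease gene Ctse was at 66.9, 59.1 and 67.01 CPM on HFD, against 11.3, 11.2 and 12.5 CPM on chow in KO livers, and was 5.53-fold higher (adjusted p = 4.14e-26). For both genes the groups were far apart relative to their spread. Mme, which encodes the membrane peptidase neprilysin, averaged 9.42 ± 0.814 CPM on HFD and 1.97 ± 0.303 CPM on chow in KO livers (SD, n = 3 each) and was 4.76-fold higher. The other genes with the largest rises were the clock output Dbp, the organic anion transporter gene Slc22a29, the α-arrestin gene Arrdc3 and Rps13-ps1, with log2 changes of 2.53 ± 0.11, 2.12 ± 0.17, 1.98 ± 0.036 and 3.18 ± 0.21. Rps13-ps1 is a processed copy of a ribosomal protein gene, and reads of the parent gene may have been counted in it.

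Moxd1, a copper-dependent monooxygenase relative expressed mainly in male mouse liver, showed the largest fall by the same rule. It had 0 counts in each of the 3 KO libraries on HFD, against 45.7, 47.4 and 43.7 CPM, 2778 counts in all, in KO livers on chow. Set against a floor of 3 counts over the HFD group, it was at least 886-fold lower on HFD (adjusted p = 1.15e-27). It was thus without reads in the HFD group.

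The 250 bases before the Moxd1 start site are shown because the gene went to 0 counts. They run over chr10:24223267-24223516 on the plus strand of GRCm38.p6 in RefSeq's promoter table, 5′ to 3′, and capitals mark the match to the STAT5 motif TTCCNNGAA, searched on both strands, which begins 150 bases before the start site.

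Moxd1: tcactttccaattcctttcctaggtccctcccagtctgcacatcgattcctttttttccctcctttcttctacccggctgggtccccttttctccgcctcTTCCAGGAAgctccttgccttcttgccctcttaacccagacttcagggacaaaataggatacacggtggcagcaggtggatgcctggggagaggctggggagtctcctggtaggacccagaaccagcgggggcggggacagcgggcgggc

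Windows from 250 bases before to 50 bases after the start site were found in that table for 10626 of the 14778 tested genes, and 5.56% of them held a STAT5 motif. The share was 4.8% in the 125 genes with a window that were at least 2-fold higher in KO livers on HFD and 6.03% in the 431 that were at least 2-fold lower. Among the genes picked as the largest changes, it was in 2 of 7 rises and 1 of 10 falls with a window. The match describes letters in the window and says nothing of binding.

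Igdcc4, which encodes a membrane protein of the immunoglobulin superfamily, was at 0.151, 0.215 and 0.102 CPM in KO livers on HFD, against 16.5, 17.6 and 19.6 CPM in KO livers on chow (log2 -6.798 ± 0.22, adjusted p = 1.52e-22). The chemokine gene Cxcl14 was at 2.26, 2.79 and 1.42 CPM on HFD, against 64.2, 70.4 and 69.1 CPM on chow in KO livers (log2 -4.98 ± 0.10, adjusted p = 1.41e-28). Isyna1, which makes inositol phosphate from glucose 6-phosphate, was at 9.19, 11.1 and 10.3 CPM on HFD, against 143, 145 and 147 CPM on chow in KO livers (log2 -3.83 ± 0.062, adjusted p = 2.64e-31). None of these groups overlapped, as the rule for choosing the genes required. The calcium-binding protein gene Cib3, the adenylate cyclase gene Adcy1 and the epithelial transcription factor gene Elf3 fell as well (log2 -5.23 ± 0.15, -4.93 ± 0.20 and -4.65 ± 0.18). Saa2 and Orm2, both acute phase genes, Prtn3, a neutrophil protease gene, and the pseudogene Mup-ps20 were also among the largest falls.

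**Figure D1:**
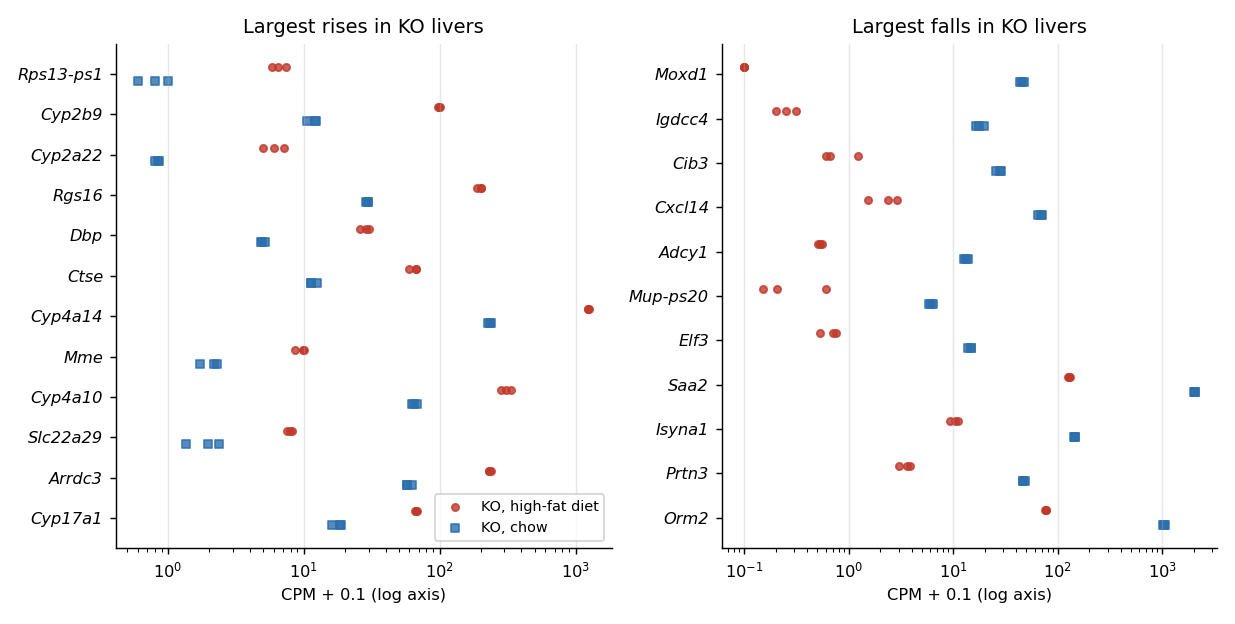
Level in each KO library, as CPM + 0.1 on a log axis, of the 12 genes with the largest rises (left) and 11 of the genes with the largest falls (right) on HFD, among called genes whose higher group averaged 5 CPM or more and whose diets did not overlap, as the rule for choosing them required. Each point is 1 library, circles for HFD and squares for chow, and Moxd1 lies at 0.1 on HFD because it had 0 counts.

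Genes of fatty acid oxidation rose together in KO livers on HFD. Of 38 members of a list of oxidation genes and PPARα targets, 36 were higher and 1 lower, against 18.5% and 18.1% of all tested genes, and the median log2 change was 0.77, against −0.0026 over all genes. The summed level of the list was 21554 to 21817 CPM in KO livers on HFD, against 12983 to 13049.8 CPM in KO livers on chow. Aldh3a2, a fatty aldehyde dehydrogenase, was at 731, 712 and 728 CPM on HFD, against 296, 307 and 298 CPM on chow in KO livers (log2 1.27 ± 0.023, adjusted p = 1.08e-29). Its 3 HFD libraries lay above the 3 chow libraries without overlap. The receptor gene Ppara itself rose by 0.77 ± 0.038 and Cpt1a, which admits fatty acids to mitochondria, by 0.68 ± 0.026. The β-oxidation genes Acadm, Acadl, Hadha and Hadhb rose by 0.71, 0.72, 0.52 and 0.64 on the log2 scale, and the peroxisomal gene Ehhadh by 0.88. The member that fell was the mitochondrial carrier gene Ucp2 (-0.22 ± 0.078), and Pdk4, an inhibitor of pyruvate dehydrogenase, did not pass (0.11 ± 0.079, adjusted p = 0.281). With the coefficient of variation fixed at 20%, 22 members were called higher.

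Of 22 tested lipid droplet genes and PPARγ targets, 16 were higher and none lower in KO livers on HFD, with a median of 0.54. PPARγ and CD36 are named in the series title, so this list is not independent of what the study set out to show. Cd36, a fatty acid transporter, was at 108, 98.4 and 100.01 CPM in KO livers on HFD, against 50.9, 50.5 and 47.3 CPM in KO livers on chow, a 2.06-fold difference (log2 1.04 ± 0.043, adjusted p = 6.13e-20). Pparg was at 13.8, 11.9 and 13.5 CPM on HFD, against 9.68, 11.7 and 11.4 CPM on chow in KO livers (log2 0.26 ± 0.091, adjusted p = 0.027). Cd36 separated the diets clearly, while the Pparg difference was close to the spread between libraries. The Pparg call was lost without KO HFD replicate 1 (adjusted p = 0.112), KO HFD replicate 3 (0.0808) or KO chow replicate 1 (0.168), and the exact permutation p was 0.1 for both genes, the smallest possible. G0s2, an inhibitor of triglyceride lipolysis, was at 169, 174 and 176 CPM on HFD, against 57.7, 57.6 and 55.3 CPM on chow in KO livers, and was 3.04-fold higher (adjusted p = 5.03e-27). The droplet coat gene Plin2 averaged 699 ± 13.4 CPM on HFD and 438 ± 2.57 CPM on chow in KO livers (SD, n = 3 each). The droplet fusion genes Cidea and Cidec rose by 1.64 ± 0.21 and 1.43 ± 0.087, Mogat1, a monoacylglycerol acyltransferase, by 1.67 ± 0.23, and Mgll, a monoacylglycerol lipase, by 0.89 ± 0.030. The 6 members that did not pass included the triglyceride lipase gene Lipe (0.22 ± 0.11) and Pnpla3 (0.26 ± 0.19).

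Of 17 fatty acid uptake and activation genes, 10 were higher and 3 lower, against 18.5% and 18.1% of all tested genes. Among the 17, 3 (Cd36, Fabp1 and Fabp4) are also counted in one of the lists above. Acsl1, which activates long-chain fatty acids, averaged 1349.9 ± 21.1 CPM on HFD and 796 ± 8.12 CPM on chow in KO livers, and Slc27a2, a very-long-chain acyl-CoA synthetase, 1177 ± 16.6 and 768 ± 3.19 CPM (SD, n = 3 each). The lipoprotein receptor gene Vldlr was at 7.49, 6.39 and 6.85 CPM on HFD, against 1.62, 1.96 and 1.93 CPM on chow in KO livers, and was 3.75-fold higher (adjusted p = 4.07e-12). These 3 genes rose without overlap. The members that fell were the fatty acid binding protein gene Fabp5 (-2.32 ± 0.090), lipoprotein lipase, Lpl (-2.04 ± 0.080), and Acsl3 (-0.63 ± 0.053).

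Of 24 lipogenic genes 14 were higher and 4 lower in KO livers, against 18.5% and 18.1% of all tested genes, with a median of 0.17. Scd1, the main hepatic stearoyl-CoA desaturase, was at 5067, 5007 and 4932 CPM in KO livers on HFD, against 9243, 9315 and 9237 CPM in KO livers on chow (log2 -0.89 ± 0.012, adjusted p = 1.81e-33). Scd1 was thus lower in every HFD library. The polyunsaturated fatty acid desaturase and elongase genes Fads2 and Elovl2 rose by 0.87 ± 0.028 and 0.67 ± 0.023, and Fasn, fatty acid synthase, by 0.41 ± 0.026. The regulators Srebf1 (0.067 ± 0.028) and Mlxipl (0.053 ± 0.038) did not pass.

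Enzymes of glycerolipid and phosphatidic acid metabolism, the pathway that Pld1 itself feeds, were 12 higher and 6 lower of 27, with a median of 0.0999. The phosphatidate phosphatase genes Lpin1 and Lpin2 averaged 557 ± 5.61 and 589 ± 5.13 CPM in KO livers on HFD, against 369 ± 3.23 and 367 ± 1.28 CPM in KO livers on chow (SD, n = 3 each). Dgat2, which makes triglyceride, rose by 0.45 ± 0.025, and Gpam, which starts glycerolipid synthesis, by 0.34 ± 0.031. The other phospholipase D genes gave -0.31 ± 0.11 for Pld2 and -0.98 ± 0.13 for Pld4, both lower, and -0.092 ± 0.061 for Pld3 and 0.27 ± 0.30 for Pld6, which did not pass. In cholesterol synthesis, 17 of 25 genes were higher and 2 lower with a small median of 0.12. Hsd17b7 and Msmo1, enzymes of the later steps of the pathway, rose by 0.59 ± 0.037 and 0.41 ± 0.031. None of the 25 was called with the coefficient of variation fixed at 20%.

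Bile acid and lipoprotein genes were mostly higher in KO livers on HFD. Of 22 genes of bile acid synthesis and transport, 18 were higher and 1 lower, with a median of 0.28. Cyp8b1, the enzyme that directs synthesis to cholic acid, was at 531, 519 and 532 CPM on HFD, against 306, 298 and 298 CPM on chow in KO livers (log2 0.81 ± 0.024, adjusted p = 1.07e-23). Nr0b2, which encodes the repressor SHP, was at 84.3, 85.8 and 88.7 CPM on HFD, against 43.5, 44.1 and 44.4 CPM on chow in KO livers (log2 0.97 ± 0.049, adjusted p = 1.75e-17). Neither gene's groups overlapped. Slc10a1, the main bile acid importer, rose by 0.50 ± 0.024 and the phospholipid exporter gene Abcb4 by 0.48 ± 0.025, whereas Cyp7a1, the rate-limiting enzyme, did not pass (0.000029 ± 0.041, adjusted p = 1) and Cyp7b1 fell (-0.24 ± 0.032). Of 21 apolipoprotein and lipoprotein assembly genes, 19 were higher and 2 lower, with a median of 0.26. Apoe averaged 31829.5 ± 463 CPM on HFD and 23904 ± 245 CPM on chow in KO livers (SD, n = 3 each), and Apoa2 and Apoa4 rose by 0.48 ± 0.019 and 1.14 ± 0.074. The lipase inhibitor genes Angptl4 and Angptl8 rose by 0.74 ± 0.032 and 0.93 ± 0.059, and Apom and the cholesterol exporter gene Abca1 fell (log2 -0.29 ± 0.035 and -0.37 ± 0.035).

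Genes of the respiratory chain rose by a small amount. Of 26 nuclear genes of oxidative phosphorylation, 24 were higher and none lower, with a median of 0.25. Sdha and Sdhb, subunits of complex II, rose by 0.28 ± 0.023 and 0.35 ± 0.030, and Atp5a1, a subunit of the ATP synthase, by 0.25 ± 0.021. Of 13 mitochondrially encoded genes, 8 were higher and none lower (median 0.14), among them mt-Cytb (0.33 ± 0.013) and mt-Co3 (0.55 ± 0.16). The calls rest on the small spread between libraries: with the coefficient of variation fixed at 20% none of the 26 nuclear genes was called, and once the length and GC trend was removed the mitochondrial list held 4 higher and 2 lower genes.

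Glucose and amino acid metabolism genes were also mostly higher. In the glucose list 17 of 26 genes were higher and 3 lower, which were G6pc, Irs1 and Irs2. G6pc, the glucose-6-phosphatase that releases glucose, was at 403, 404 and 403 CPM in KO livers on HFD, against 829, 843 and 847 CPM in KO livers on chow (log2 -1.06 ± 0.022, adjusted p = 2.04e-28). Irs2, an insulin receptor substrate, was at 19.4, 22.1 and 22.7 CPM on HFD, against 55.4, 51.3 and 57.8 CPM on chow in KO livers (log2 -1.36 ± 0.061, adjusted p = 7.40e-19). Both fell without overlap, while Pck1, which makes phosphoenolpyruvate for gluconeogenesis, did not pass (0.020 ± 0.015). Of 30 urea cycle and amino acid catabolism genes, 22 were higher and 4 lower, with a median of 0.20. The tyrosine pathway gene Hpd rose by 0.53 ± 0.017 and the tryptophan dioxygenase gene Tdo2 by 0.50 ± 0.021.

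Genes expressed around the central vein were higher in 10 of 12 cases and lower in 1 (Lgr5, -0.37 ± 0.10), with a median of 0.40, while the 13 periportal genes split into 7 higher and 5 lower. Cyp2e1, the ethanol-oxidising P450 of pericentral hepatocytes, was at 7699.9, 7527 and 7403 CPM on HFD, against 4424, 4395 and 4337 CPM on chow in KO livers (log2 0.78 ± 0.014, adjusted p = 3.08e-30). Cyp1a2 averaged 1459 ± 9.41 CPM on HFD and 999.8 ± 11.1 CPM on chow in KO livers, and Glul, glutamine synthetase, 1352 ± 18.2 and 1042 ± 7.85 CPM (SD, n = 3 each). These 3 pericentral genes rose without overlap. The periportal genes Hal, histidine ammonia-lyase, and Sds, serine dehydratase, fell (log2 -0.43 ± 0.028 and -0.69 ± 0.035).

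Sex-biased genes shifted in opposite directions in KO livers on HFD. Of 16 tested female-biased genes, 10 were higher and 1 lower, with a median of 1.82, and of 29 male-biased genes, 3 were higher and 21 lower, with a median of -0.42. Abcd2, a peroxisomal fatty acid transporter on the female-biased list, was at 33.7, 29.1 and 26.8 CPM on HFD, against 7.65, 10.5 and 8.94 CPM on chow in KO livers (log2 1.72 ± 0.090, adjusted p = 4.67e-17). Serpina1e, a male-biased protease inhibitor, was at 2276, 2219 and 2203 CPM on HFD, against 6594, 6509 and 6384 CPM on chow in KO livers (log2 -1.54 ± 0.016, adjusted p = 9.37e-37). The selenium-binding protein gene Selenbp2 was at 49.4, 46.9 and 48.7 CPM on HFD, against 193, 194 and 193 CPM on chow in KO livers (log2 -1.999 ± 0.040, adjusted p = 1.41e-28). Abcd2 was high and the other two low in every HFD library. The female-biased member that fell was Cyp2b10 (-1.24 ± 0.20), which is also inducible by xenobiotics, and 7 of the 23 genes on that list had too few reads to be tested. Mup1, a major urinary protein gene, fell (log2 -0.42 ± 0.094), although reads of this near-identical family could have been divided among copies. Of 16 growth hormone and STAT5 signalling genes, 4 were higher and 7 lower. Bcl6, a repressor of female-biased genes, rose by 0.60 ± 0.042, the cytokine-signalling inhibitor genes Socs3 and Cish fell (log2 -1.62 ± 0.086 and -1.798 ± 0.20), and Igf1 (-0.034 ± 0.027) did not pass.

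Among 23 xenobiotic P450 and receptor genes 9 were higher and 8 lower, a split without a common direction (median 0.032). Cyp3a11, the main drug-oxidising P450 of mouse liver, averaged 526 ± 19.05 CPM on HFD and 1116 ± 39.8 CPM on chow in KO livers (SD, n = 3 each), and Cyp2c38 rose by 1.41 ± 0.051. The 29 NRF2 and glutathione genes also split, with 10 higher and 9 lower: the glutathione transferase genes Gstt1 and Gstt3 rose (0.74 ± 0.031 and 1.15 ± 0.056) and Gstm3 fell (-1.04 ± 0.054).

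Acute phase proteins were lower in KO livers on HFD. Of 28 genes, 25 were lower and 1 higher, with a median of -1.01. Saa2, which encodes a serum amyloid A, was at 126, 132 and 129 CPM in KO livers on HFD, against 2020.1, 2034 and 2052 CPM in KO livers on chow (log2 -3.98 ± 0.026, adjusted p = 2.39e-42). Orm2, an α1-acid glycoprotein gene, was at 75.01, 77.9 and 77.8 CPM on HFD, against 1073, 1045 and 1009 CPM on chow in KO livers (log2 -3.76 ± 0.034, adjusted p = 1.42e-38). Lcn2, lipocalin 2, a bacteriostatic protein made by both hepatocytes and neutrophils, was at 69.4, 71.95 and 75.3 CPM on HFD, against 455, 441 and 431 CPM on chow in KO livers (log2 -2.61 ± 0.038, adjusted p = 9.65e-33). In all 3 genes every HFD library lay far below every chow library. Hpx, hemopexin, and Saa1 fell (log2 -1.15 ± 0.015 and -2.84 ± 0.024), as did the fibrinogen chain genes Fga, Fgb and Fgg (log2 -1.07, -1.03 and -0.99). Reads of Saa1 and Saa2, and of Orm1 to Orm3, could have been exchanged between copies. The level on chow was itself high in KO livers. The summed level of the list was 35469 to 36184 CPM in KO livers on HFD, against 67887 to 69224 CPM in KO livers on chow. It was 23912 to 23988 CPM in control livers on HFD and 37504 to 37607 CPM in control livers on chow. The KO livers on chow thus stood above the other 3 groups, and KO livers on HFD were close to control livers on chow. In control livers 18 of the 28 genes were lower and 6 higher on HFD, with a median of -0.53.

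Complement and coagulation genes were lower in 21 and higher in 4 of 31 cases, with a median of -0.26. C3, the central complement component, averaged 6663 ± 82.8 CPM on HFD and 10975 ± 152 CPM on chow in KO livers (SD, n = 3 each), and C8a, a component of the membrane attack complex, fell (log2 -0.81 ± 0.022). Among 20 hepatokine and stress hormone genes, 11 were higher and 7 lower. Fgf21, a hormone that PPARα induces in liver, rose by 1.49 ± 0.12 and the stress cytokine gene Gdf15 by 1.48 ± 0.065. Igfbp1, a binding protein for insulin-like growth factors, was at 107, 109 and 108 CPM on HFD, against 435, 426 and 419.7 CPM on chow in KO livers (log2 -1.98 ± 0.035, adjusted p = 3.08e-30). Hamp, the iron hormone hepcidin, was at 113, 115 and 110.1 CPM on HFD, against 272, 266 and 252 CPM on chow in KO livers (log2 -1.22 ± 0.037, adjusted p = 1.27e-23). Both fell without overlap. In the list of endoplasmic reticulum and integrated stress response genes, 3 of 25 were higher and 14 lower. Asns, asparagine synthetase, was at 3.67, 4.13 and 3.15 CPM on HFD, against 28.4, 27.2 and 30.9 CPM on chow in KO livers, the chaperone genes Hspa5 and Hyou1 fell (log2 -0.25 ± 0.020 and -0.40 ± 0.031), and Herpud1, of the degradation pathway, rose by 0.62 ± 0.022.

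Markers of several cell types other than hepatocytes fell alongside the acute phase genes. In bulk RNA, fewer cells of a type and less RNA per cell cannot be told apart. Of 29 macrophage and Kupffer cell markers, 23 were lower and none higher (median -0.76), and of 12 neutrophil markers, 11 were lower and none higher (median -2.95). The Kupffer cell genes Clec4f, Timd4 and Vsig4 fell (log2 -0.61 ± 0.042, -0.79 ± 0.17 and -0.76 ± 0.089). Mpeg1, which encodes a pore-forming protein of macrophages, was at 63.9, 60.8 and 60.8 CPM in KO livers on HFD, against 131, 128 and 126 CPM in KO livers on chow (log2 -1.05 ± 0.041, adjusted p = 1.78e-20). S100a9, a calcium-binding protein of neutrophils, was at 1.46, 1.18 and 1.27 CPM on HFD, against 13.2, 12.8 and 12.95 CPM on chow in KO livers (log2 -3.31 ± 0.17, adjusted p = 3.01e-17). No library of one diet overlapped the other in these genes. The summed macrophage list was 436 to 441 CPM in KO livers on HFD, against 855 to 887 CPM in KO livers on chow. It was 347 to 359 and 337 to 349.7 CPM in control livers on HFD and on chow. The neutrophil list summed to 78.4 to 85.4 CPM in KO livers on HFD, against 529 to 553 CPM in KO livers on chow. It was 21.4 to 23.8 and 63.6 to 67.7 CPM in control livers on HFD and on chow. Most of the neutrophil sum was Lcn2, described above with the acute phase genes, so that sum is not independent of them. No member of the cell type lists was at 0 counts over either KO group, and Ly6g, a surface marker that defines neutrophils, had 1 count in KO livers on HFD, against 18 counts in KO livers on chow, too few to be tested. Both summed lists were highest in KO livers on chow. Neutrophil markers were also lower on HFD in control livers, with 10 lower and 0 higher of 12 (median -3.54). The part of these cells in the acute phase result was not tested. Spp1, osteopontin, on both the macrophage and the cholangiocyte list, was at 24.4, 23.1 and 22.3 CPM on HFD, against 159.6, 156 and 146 CPM on chow in KO livers (log2 -2.72 ± 0.054, adjusted p = 8.62e-29). Of 12 cholangiocyte markers 9 were lower and none higher, including the keratin gene Krt19 (-0.93 ± 0.30) and the transcription factor gene Sox9 (-0.83 ± 0.10). Lymphocyte markers (T, NK and B cells) included 4 lower and no higher genes among 9 tested, led by the immunoglobulin gene Ighm (-1.23 ± 0.10), and of 6 erythroid markers 5 were lower, including the haemoglobin gene Hbb-bs (-0.92 ± 0.055). Sinusoidal endothelial markers did not fall as a set, with 6 higher and 3 lower of 20 and a median of 0.11. The endothelial genes Stab1, Eng and Oit3 rose, whereas Icam1, an adhesion molecule, fell (log2 -1.28 ± 0.095). Of 26 fibrosis and stellate cell markers 2 were higher and 9 lower, with Col1a1 and Col3a1, fibrillar collagens, at -0.45 ± 0.12 and -0.32 ± 0.069. None of them was called with the coefficient of variation fixed at 20%. Their median was -0.20, and -0.075 with the length and GC trend removed. Hepatocyte identity genes gave 9 higher and 2 lower of 15, with Alb, albumin, at 0.23 ± 0.011, and summed to 98433 to 103213 CPM in KO livers on HFD, against 84028 to 85757 CPM in KO livers on chow.

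**Figure D2:**
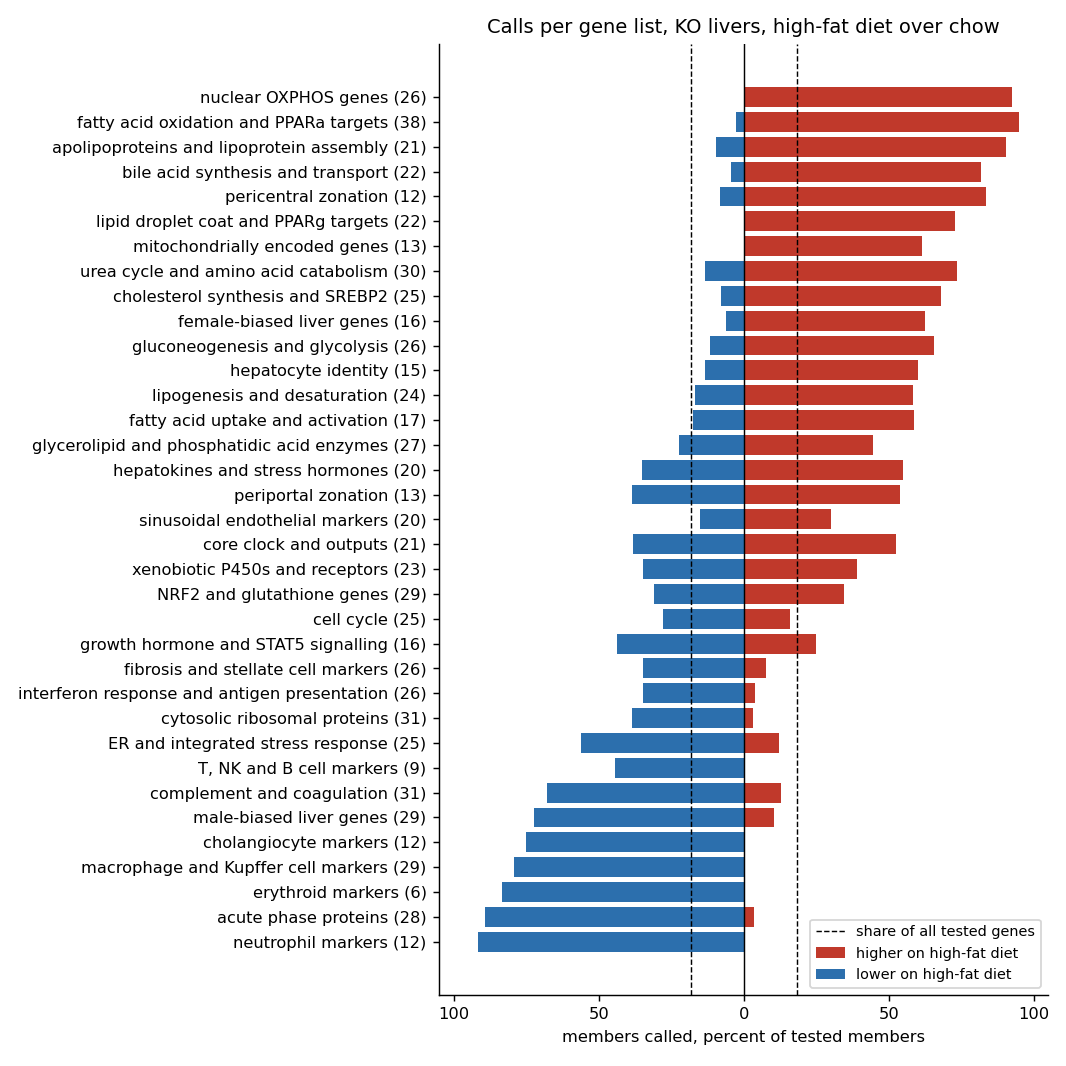
Percent of the tested members of each gene list (number tested in brackets) that were called higher (bars to the right) or lower (bars to the left) in KO livers on HFD against KO livers on chow. The dashed lines mark the share of all tested genes, 18.5% higher and 18.1% lower; fatty acid oxidation genes had 36 of 38 members higher, and neutrophil markers 11 of 12 lower.

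The circadian clock list shifted as a set of opposed arms: 11 of 21 genes were higher and 8 lower. The repressor gene Nr1d1, REV-ERBα, was at 107, 114 and 116 CPM in KO livers on HFD, against 41.9, 42.97 and 47.1 CPM in KO livers on chow (log2 1.36 ± 0.046, adjusted p = 3.58e-22). The output transcription factor gene Dbp was at 26.1, 28.7 and 30.4 CPM on HFD, against 4.81, 5.13 and 4.72 CPM on chow in KO livers, and was 5.79-fold higher. Its relative Tef was at 136, 134 and 136 CPM on HFD, against 64.7, 60.9 and 63.1 CPM on chow in KO livers (log2 1.104 ± 0.041, adjusted p = 3.58e-21). All 3 genes were higher in every HFD library. Per2 and Per3, repressors of the clock, rose by 0.71 ± 0.063 and 1.52 ± 0.11, whereas the activator genes Arntl and Npas2 and the repressor gene Cry1 fell (log2 -0.87 ± 0.081, -1.69 ± 0.12 and -0.88 ± 0.075). The labels used here give no hour of tissue collection, so diet and time of day cannot be told apart for these genes.

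RefSeq's table holds 2 start sites for Tef, and the 250 bases before each are shown because both carry the E-box CACGTG, the palindrome bound by the CLOCK and BMAL1 pair. They lie at chr15:81802423-81802672 and chr15:81811164-81811413 on the plus strand of GRCm38.p6, with the E-box in capitals beginning 127 and 138 bases before the start site.

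Tef, first start: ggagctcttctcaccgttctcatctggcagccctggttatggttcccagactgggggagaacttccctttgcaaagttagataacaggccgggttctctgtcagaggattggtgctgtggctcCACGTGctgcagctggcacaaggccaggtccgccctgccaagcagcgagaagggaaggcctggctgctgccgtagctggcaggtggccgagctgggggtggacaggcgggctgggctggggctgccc
Tef, second start: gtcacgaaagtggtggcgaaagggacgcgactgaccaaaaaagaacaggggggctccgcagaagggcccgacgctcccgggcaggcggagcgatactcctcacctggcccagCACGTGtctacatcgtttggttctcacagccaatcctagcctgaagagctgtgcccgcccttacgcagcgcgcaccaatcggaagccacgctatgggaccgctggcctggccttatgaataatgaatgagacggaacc

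An E-box was present in the windows of 20 (16%) of the 125 genes at least 2-fold higher in KO livers on HFD, of 6.73% of the 431 genes at least 2-fold lower and of 11.6% of all 10626 tested genes with a window. The D-box TTATGTAA, which DBP and TEF bind, was in 1.6%, 1.16% and 0.734% of the same sets. Among the genes picked as the largest changes, an E-box was in 0 of 7 rises and 1 of 10 falls with a window. The shares are given as a description of sequence, without a test.

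Of 25 tested cell cycle genes 4 were higher and 7 lower in KO livers, against 18.5% and 18.1% of all tested genes. Most of them were expressed at a few CPM. Mki67, a marker of dividing cells, was at 1.26, 1.24 and 1.02 CPM on HFD, against 2.84, 2.94 and 3.404 CPM on chow in KO livers (log2 -1.38 ± 0.22, adjusted p = 5.64e-06), while Cdkn1a, the cell cycle inhibitor p21, rose by 0.37 ± 0.038 and Ccnd1, cyclin D1, by 0.65 ± 0.11. The count of lower genes in this list was 4 without KO HFD replicate 2 or KO chow replicate 1 and 1 with a filter of 5 CPM. Of 31 cytosolic ribosomal protein genes 12 were lower and 1 higher, with a median of -0.065, and of 26 interferon response and antigen presentation genes 9 were lower and 1 higher, with Irf7 at log2 -0.66 ± 0.061.

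The same diet contrast in control livers shares no library with that in KO livers. HFD changed 5571 genes in control livers (37.7%), 2773 higher (18.8%) and 2798 lower (18.9%). Of the 5412 genes called in KO livers, 2347 were called in the same direction in control livers, which is 43.4% of the KO calls and 42.1% of the control calls, and 734 were called in the opposite direction (13.6% and 13.2%). At a fold of at least 1.5 in both genotypes, 620 genes were shared in direction (36.8% of 1685 KO calls and 34.6% of 1793 control calls, which were 11.4% and 12.1% of tested genes) and 91 were opposite, of which 16 were higher in KO and lower in control livers and 75 the reverse. The difference between the diet responses was tested as the diet by genotype interaction, which was called for 4411 genes (29.8%), 2241 (15.2%) with the more positive change in KO livers and 2170 (14.7%) with the more negative. With the length and GC trend removed the split was 2624 and 1665. Of the 2347 genes changed in the same direction in both genotypes, 1467 had no called interaction, 494 had a smaller and 386 a larger change in KO livers. Among the 939 genes (6.35%) that HFD raised at least 1.5-fold in control livers, the median log2 change was 0.25 in KO livers and 0.95 in control livers. In KO livers 388 of them (41.3%) were higher, 100 lower and 451 not called. Among the 854 genes (5.78%) that HFD lowered at least 1.5-fold in control livers, the median was −0.54 in KO livers and −1.05 in control livers, and in KO livers 477 (55.9%) were lower, 46 higher and 331 not called. These genes were chosen for their size in control livers, which alone favours larger values there. Across the 9430 genes with a mean of at least 5 CPM, Pearson's r between the log2 changes in KO and control livers was 0.60, a description across genes, which are not independent replicates.

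**Figure D3:**
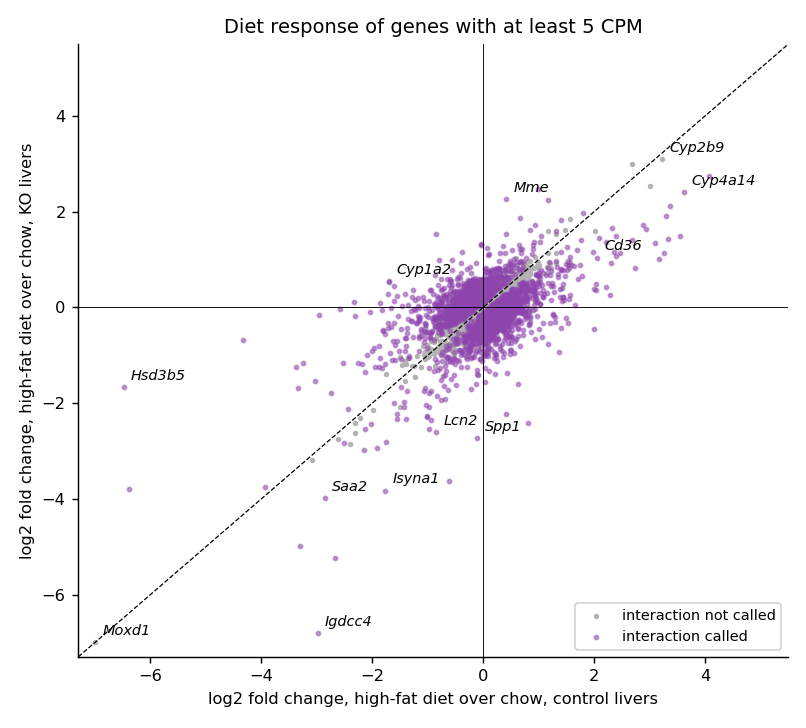
Log2 fold change of HFD over chow in KO livers (vertical axis) against control livers (horizontal axis) for the 9430 genes with a mean of at least 5 CPM; purple points have a called diet by genotype interaction. The dashed line marks equal change, and 1 gene, Moxd1, beyond −7 on both axes is drawn at the edge; Cd36 lies below the line and Hsd3b5 above it.

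Large responses with no called interaction included both rises and falls. Cyp2b9 had a log2 change of 3.09 ± 0.053 in KO livers and 3.22 ± 0.045 in control livers, and Dbp of 2.53 ± 0.11 and 2.9998 ± 0.18. Vldlr, described above, changed by 1.91 ± 0.16 in KO and 2.11 ± 0.15 in control livers. Among the falls, the liver citrate transporter gene Slc13a5 was at 2.61, 2.52 and 2.03 CPM in KO livers on HFD, against 17.4, 16.4 and 18.4 CPM in KO livers on chow (log2 -2.86 ± 0.14), and changed by -2.395 ± 0.19 in control livers. The neurotrophin receptor gene Ntrk2 was at 5.43, 4.19 and 6.24 CPM on HFD, against 32.1, 33.3 and 33.02 CPM on chow in KO livers (log2 -2.63 ± 0.089), and changed by -2.32 ± 0.081 in control livers. These genes moved in the same direction in both genotypes. The sulfotransferase gene Sult2a7 (-3.19 ± 0.10 in KO and -3.09 ± 0.12 in control livers) and the chloride channel relative Clic3 (-2.32 ± 0.18 and -3.03 ± 0.18) were others. Moxd1 had 1 count in control livers on HFD, against 1126 on chow. The interaction was called for Cyp2b9 with the length and GC trend removed (adjusted p = 0.0494), for Ntrk2 without KO HFD replicate 3 (adjusted p = 0.0148), and for Clic3 without KO HFD replicate 2, KO chow replicate 3 or control HFD replicate 2 (adjusted p = 0.0391, 0.0449 and 0.0364). A missing call does not show that a response was equal in the 2 genotypes.

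Cd36 rose in both genotypes, and by less in KO livers. In control livers it was at 221, 219 and 236 CPM on HFD, against 53.9, 54.9 and 53.7 CPM on chow (log2 2.06 ± 0.041), and the interaction was -1.02 ± 0.059 (adjusted p = 1.96e-15). With the coefficient of variation fixed at 20% the Cd36 interaction was not called (adjusted p = 0.0648). For Pparg, with 19.6, 20.96 and 18.9 CPM on HFD and 15.8, 14.9 and 16.3 CPM on chow in control livers (log2 0.34 ± 0.081), the interaction was -0.084 ± 0.12 and was not called (adjusted p = 0.66). Across lipid droplet genes and PPARγ targets, 3 interactions were positive and 11 negative among 22 genes, and the median diet change was 0.54 in KO livers and 0.81 in control livers. For fatty acid oxidation genes the split was 15 positive and 9 negative among 38, with medians of 0.77 and 0.62.

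Several lists responded differently in the 2 genotypes. Macrophage markers were 0 higher and 23 lower in KO livers and 10 higher and 2 lower in control livers, with 23 of 29 interactions negative and 0 positive among those called. Fibrosis and stellate cell markers were 2 higher and 9 lower in KO livers and 23 higher and 0 lower in control livers (21 negative and 0 positive interactions of 26). Cell cycle genes were 4 higher and 7 lower of 25 in KO livers, against 18.5% and 18.1% of all tested genes. The lower count there fell to 1 with a filter of 5 CPM, so it shows no clear fall of the list. In control livers 18 were higher and 0 lower (15 negative and 0 positive interactions of 25). In these 3 lists every called interaction was negative. The opposite held for metabolic lists: bile acid genes had medians of 0.28 in KO and -0.11 in control livers (17 positive and 1 negative interactions of 22), and urea cycle and amino acid genes 0.20 and -0.19 (26 positive and 1 negative of 30). Summed bile acid genes were lowest in KO livers on chow (11038 to 11247 CPM). They were at 13257 to 13739 CPM in KO livers on HFD. In control livers they were at 12837 to 13083 CPM on HFD and 12969 to 12991 CPM on chow. Summed urea cycle and amino acid genes were at 29332 to 29591.5 and 25984 to 26098.5 CPM in KO livers on HFD and on chow. In control livers they were at 23765 to 23822 and 28320 to 28703 CPM. Male-biased genes were lower in both genotypes, with a smaller median in KO livers (-0.42) than in control livers (-1.48), and 22 of 29 interactions were positive and 3 negative.

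**Figure D4:**
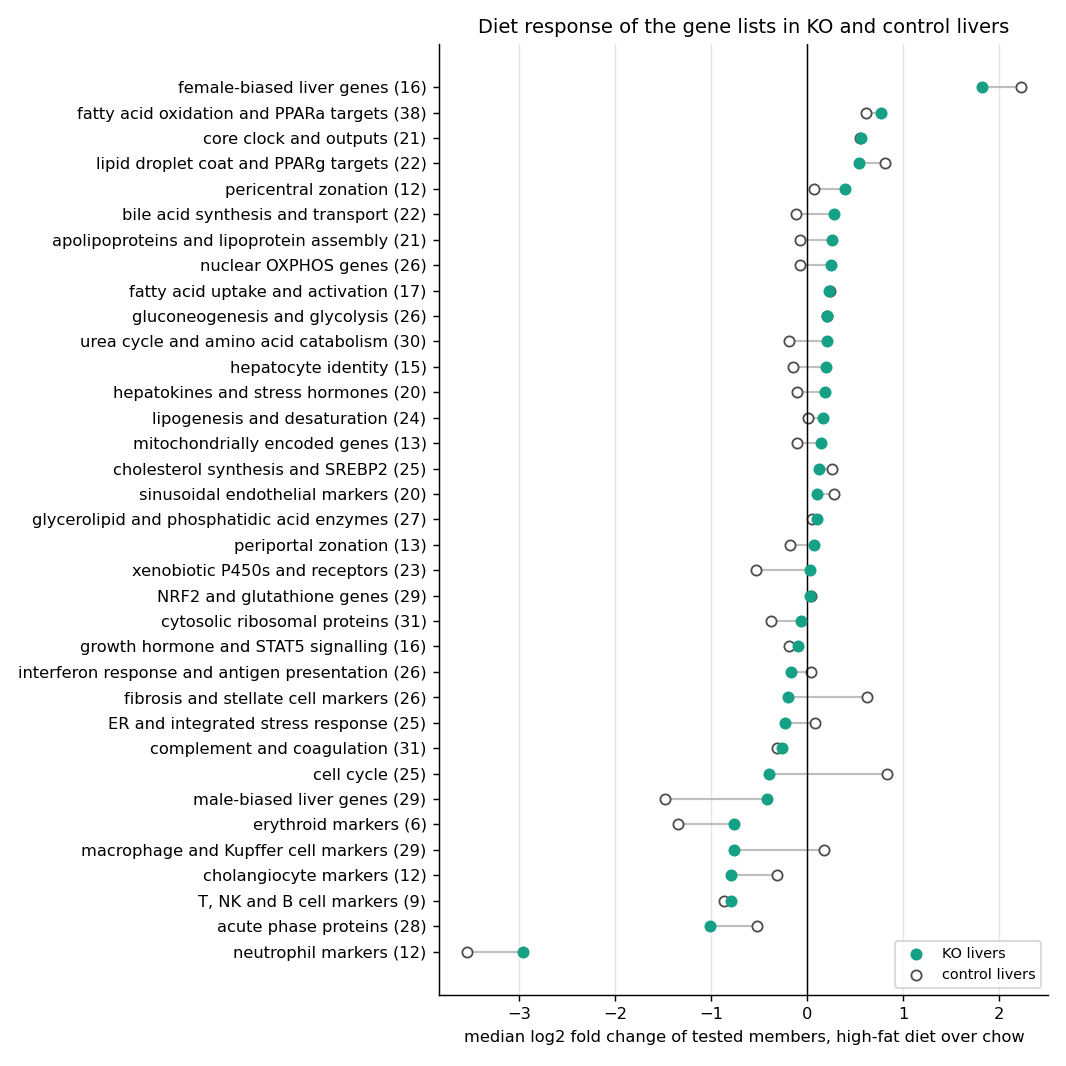
Median log2 fold change of HFD over chow among the tested members of each gene list (number tested in brackets), filled circles for KO livers and open circles for control livers. Female-biased genes had the highest medians in both genotypes and neutrophil markers the lowest; macrophage markers, fibrosis markers and cell cycle genes lay below 0 in KO livers and above 0 in control livers.

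Among called interactions of genes with at least 5 CPM in their highest group, the most positive belonged to Hsd3b5, a steroid reductase of male mouse liver. It was at 30.3, 29.4 and 26.4 CPM in KO livers on HFD, against 93.4, 88.7 and 92.4 CPM in KO livers on chow. In control livers the values were 1.96, 1.21 and 1.248 CPM on HFD, against 132, 127 and 132 CPM on chow. It fell in both genotypes, and by less in KO livers (interaction 4.81 ± 0.11, adjusted p = 5.83e-26). Socs2, an inhibitor of growth hormone signalling, did not pass in KO livers (-0.16 ± 0.17) and fell in control livers (-2.95 ± 0.15), with an interaction of 2.79 ± 0.23. The P450 gene Cyp2c54 gave -0.030 ± 0.032 in KO livers, -2.59 ± 0.034 in control livers and an interaction of 2.56 ± 0.047, and was called lower in KO livers once the length and GC trend was removed (log2 -0.085, adjusted p = 0.0201). The neutrophil granule genes Ngp, Ltf and Prtn3 fell in both genotypes from different chow levels. For these, control livers on HFD were close to 0: Prtn3 was at 0.103, 0.135 and 0.129 CPM there, against 10.6, 11.6 and 10.4 CPM on chow. Chrm3 had the most negative interaction among genes of that level. Chrm3, a muscarinic acetylcholine receptor gene, was at 2.86, 1.83 and 2.13 CPM in KO livers on HFD, against 6.49, 5.83 and 5.64 CPM in KO livers on chow. The values in control livers were 2.78, 2.74 and 2.19 CPM on HFD, against 0.0558, 0.0983 and 0.0496 CPM on chow (interaction -6.49 ± 0.44, adjusted p = 8.61e-14). It was lower on HFD in KO livers and higher on HFD in control livers, without overlap in either. Smpd3, a neutral sphingomyelinase gene, changed by -3.63 ± 0.13 in KO livers and by -0.63 ± 0.12 in control livers on the log2 scale, with an interaction of -3.003 ± 0.19.

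Genes that were higher in KO livers and lower in control livers on HFD included Cyp2c37, Inmt and the succinate receptor gene Sucnr1. Reads of Cyp2c37 could have been exchanged with related Cyp2c genes. Cyp2c37 was at 393, 386 and 370.2 CPM in KO livers on HFD, against 244, 240.4 and 235 CPM in KO livers on chow. In control livers the values were 238, 245 and 235 CPM on HFD, against 428, 435 and 457 CPM on chow. Inmt, an indolethylamine methyltransferase, was at 229.8, 236 and 227 CPM in KO livers on HFD, against 155, 153 and 150.3 CPM in KO livers on chow. The values in control livers were 209.8, 203 and 195 CPM on HFD, against 345, 337 and 345 CPM on chow. Both rose on HFD in KO livers and fell in control livers, with interactions of 1.56 ± 0.042 and 1.35 ± 0.043. The interaction was 1.78 ± 0.11 for Sucnr1 and 2.396 ± 0.19 for the serine protease inhibitor gene Serpinb1a. Hnf4aos, transcribed antisense to Hnf4a, is uncertain, since the strand setting of the counting is not given.

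Some genes changed in KO livers and by less than 0.2 on the log2 scale in control livers, with a called interaction. Angptl8, a regulator of lipoprotein lipase, was at 42.2, 43.01 and 46.1 CPM in KO livers on HFD, against 22.5, 22.8 and 23.5 CPM in KO livers on chow. Control livers gave 30.2, 27.8 and 27.97 CPM on HFD, against 33.7, 29.7 and 30.98 CPM on chow. Cyp2a5, a coumarin hydroxylase, was at 352, 340.1 and 342 CPM in KO livers on HFD, against 156, 158 and 163 CPM in KO livers on chow. In control livers the values were 307, 309 and 312 CPM on HFD, against 293, 289 and 288 CPM on chow. Their interactions were 1.07 ± 0.083 and 1.02 ± 0.039, and that of the ADP receptor gene P2ry1 was 1.35 ± 0.19. With the coefficient of variation fixed at 20% those of Angptl8 and Cyp2a5 were not called (adjusted p = 0.0503 and 0.0611). Among the genes lower in KO livers, Spp1 was at 36.4, 38.2 and 35.03 CPM on HFD, against 38.2, 43.1 and 36.6 CPM on chow in control livers (interaction -2.62 ± 0.079), well below the 154 CPM mean of KO livers on chow. Tlr2, a receptor for bacterial lipoproteins, was at 2.96, 2.36 and 1.98 CPM in KO livers on HFD, against 6.79, 6.76 and 6.96 CPM in KO livers on chow. The values in control livers were 3.76, 3.73 and 2.67 CPM on HFD, against 4.08, 2.55 and 2.58 CPM on chow. The inhibitory receptor gene Sirpa, the serum amyloid gene Saa3 and the NKG2D ligand gene Raet1e had interactions of -1.46 ± 0.11, -1.602 ± 0.17 and -1.32 ± 0.16. For Spp1 and Tlr2 the group apart from the other 3 was KO livers on chow, as it was for the summed macrophage list. The acute phase list was also highest there, but it was lower on HFD in control livers too.

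**Figure D5:**
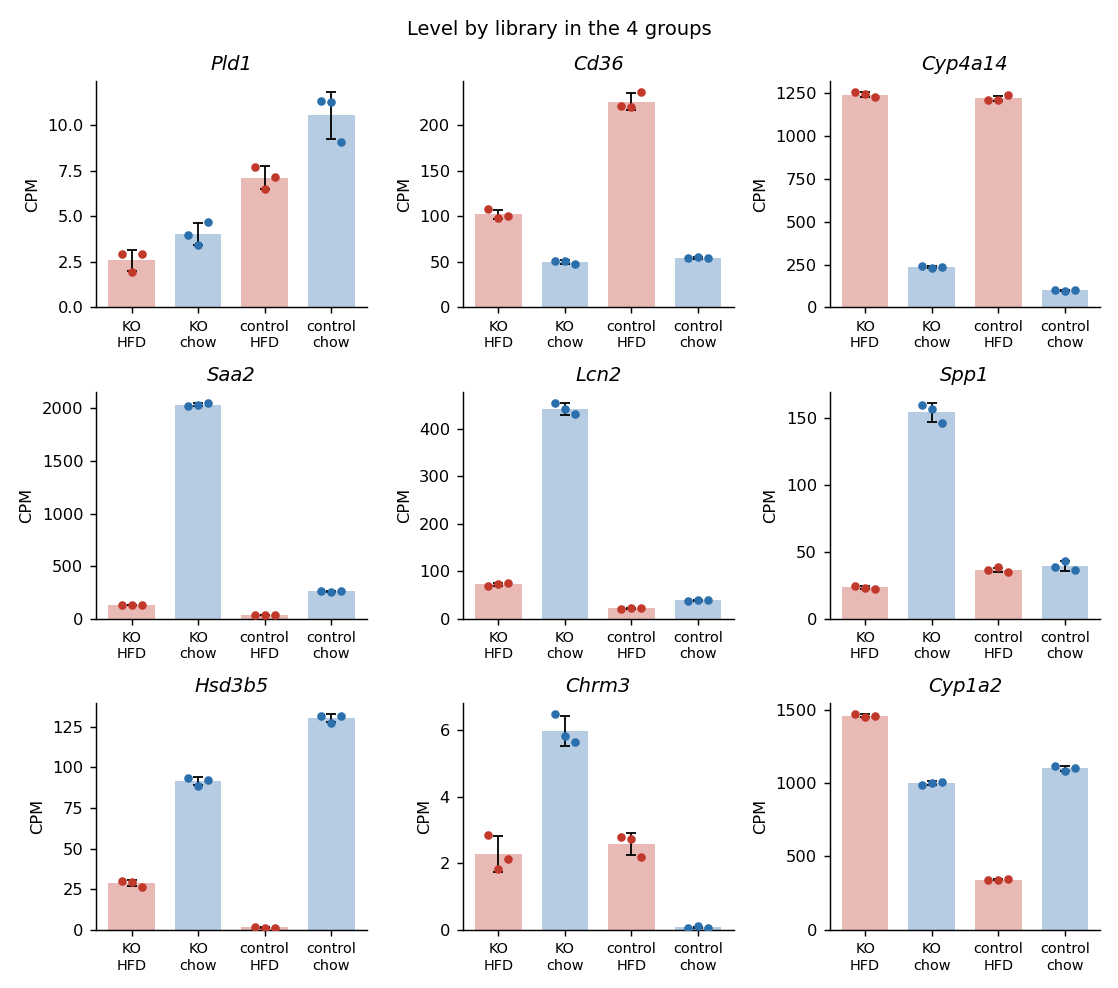
Level in CPM of 9 genes in the 4 groups; points are libraries, bars the means and whiskers the SD (n = 3). Saa2, Lcn2 and Spp1 were highest in KO livers on chow, Cd36 was highest in control livers on HFD, Cyp1a2 was highest in KO livers on HFD, and Chrm3 was lower on HFD in KO livers and higher on HFD in control livers.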

How the data were processed

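RNA sequencing of mouse liver gave 12 libraries, 3 for each of the 4 combinations of genotype and diet in the labels. Values in the deposited table are raw counts by Ensembl gene, as its whole numbers and unequal column totals show. The submitters' processing notes name Bowtie 0.12.2 and the build mm8; for the counting program, annotation, strand setting and treatment of multiply mapped reads, the sources used here give nothing. Symbols, transcript lengths and GC content came from GENCODE M21, which paired 53274 of 53465 IDs. No coordinates of the authors' build are printed; promoter windows are RefSeq's, on GRCm38.p6.

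The 14778 genes kept by edgeR 4.0.16 (filterByExpr) were scaled by TMM and fitted in 1 quasi-likelihood model of all 12 libraries without covariates (R 4.3.3), so that the groups share an estimate of the spread (common biological coefficient of variation 3.95%). Contrasts were HFD against chow in each genotype, KO against control on each diet and the diet by genotype interaction, each adjusted over all tested genes. The standard error is the absolute log2 fold change divided by the square root of F. In the 12 within-group pairs of libraries the median chi-square over genes of at least 100 counts was 1.59 to 2.34 times its expectation. In pairs between groups it was 5.43 to 11.0 times. Each library was counted as 1 replicate, although these values do not show whether the libraries are separate animals. Totals of 18215008 to 22378180 counts set the precision, and intervals and floors cover counting error only.

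The members, gene lists and rule for named genes were chosen with earlier results of these data known. By that rule the text names Pld1, Pparg and Cd36; the largest folds in KO livers, up to 12 in each direction, among those called with at least 5 CPM and no overlap, leaving out bare gene models; up to 4 members of each list with the smallest p; up to 6 genes in each direction changed alike in both genotypes without a called interaction; up to 8 in each direction with the largest called interactions and at least 5 CPM in the highest group; up to 5 in each direction changed oppositely; and up to 5 in each direction changed in KO livers with a log2 change under 0.2 in control livers. Genes chosen for a small p or a large fold tend to separate the libraries, so a lack of overlap in them adds no evidence. Further list members with values in the text were chosen after their values were seen. Some genes that the rule names are not reported here. Lists were described by counts and medians, with no test. The model was tested on simulated counts. Alternatives were no count filter, a 5 CPM filter, upper quartile scaling, the size factors or the Wald test of DESeq2 1.42.0, voom in limma 3.58.1, the libraries of the groups compared alone, a replicate block, removal of a length and GC trend, a coefficient of variation fixed at 20%, a fold of at least 1.5, and leaving out each library.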

Additional observations from a re-analysis of the deposited data

Results flagged for a closer look

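The diet response differed between the genotypes, by the diet by genotype interaction in edgeR's quasi-likelihood model, for 4411 genes. Values below are the log2 change in KO livers minus that in control livers for the genes whose interaction is reported, each with n = 3 libraries a group. Receptor, signalling and other genes with a more negative response in KO livers were Chrm3 (-6.49), Igdcc4 (-3.81), Ly6d (-3.64), Ccdc120 (-3.49), Elf3 (-3.09), Smpd3 (-3.003) and Adcy1 (-2.92). The proliferation marker Mki67 gave -2.75 and the fatty acid transporter gene Cd36 -1.02. Inflammation-related genes with a more negative response were Spp1 (-2.62), Tlr2 (-1.63), Saa3 (-1.602), Sirpa (-1.46) and Raet1e (-1.32).

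A more positive response in KO livers was measured for the steroid reductase gene Hsd3b5 (4.81), the pseudogene Serpina4-ps1 (3.63), the vomeronasal receptor gene Vmn1r90 (2.83), Socs2 (2.79) and the P450 genes Cyp2c54 (2.56), Cyp2c37 (1.56), Cyp2a5 (1.02) and Cyp4a32 (1.004). The neutrophil granule genes Ngp, Prtn3 and Ltf gave 2.91, 2.604 and 2.62, and control livers on HFD held few reads of them. The remaining positive values were those of Serpinb1a (2.396), Hnf4aos (1.88), Sucnr1 (1.78), P2ry1 (1.35), Inmt (1.35), the pseudogene Mup-ps16 (1.35) and Angptl8 (1.07). With the coefficient of variation fixed at 20%, 510 interactions were called.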

How the results depend on the processing

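Beside the main settings, counts and named genes were recomputed under 11 other settings of filter, scaling, test, samples, correction and spread, with calls also limited to a fold of at least 1.5 and with each of the 12 libraries left out in turn. With the coefficient of variation fixed at 20%, HFD changed 1102 genes in KO livers (305 higher, 797 lower) and 1194 in control livers (600 higher, 594 lower), the interaction was called for 510 (152 positive, 358 negative), and 426 genes changed alike and 29 oppositely in the 2 genotypes. The Pld1 change with diet in KO livers was -0.63 there (adjusted p = 0.195). At a fold of at least 1.5 the counts were 1685 in KO livers (512 and 1173), 1793 in control livers (939 and 854) and 1622 interactions (540 and 1082), with 620 genes alike and 91 opposite. The other settings moved none of these counts by more than 1.5 times: 5602 genes were called in KO livers with the length and GC trend removed (3301 higher, 2301 lower), 4819 of them shared with the 5412, and 4765 by DESeq2's Wald test, 4761 of them shared.

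Leaving out 1 library gave 4756 to 5462 genes in KO livers (2404 to 2751 higher, 2352 to 2723 lower), 4907 to 5657 in control livers (2441 to 2814 and 2449 to 2843) and 3934 to 4184 interactions (2014 to 2140 and 1916 to 2044), with 2147 to 2201 genes alike and 633 to 696 opposite. Pld1 differed between KO and control by -1.54 to -1.28 on HFD and by -1.51 to -1.29 on chow, and by -0.73 to -0.45 with diet in KO livers (adjusted p 0.00358 to 0.0586). Of 178 genes taken up by the naming rule or the lists' examples, 107 kept their direction and side of the threshold in every setting and 63 changed with the fixed variation alone; of 47 interactions 35 kept theirs in every setting. The values that changed sign were uncalled and near 0 where they did. Leaving out 1 library, the diet change in KO livers was -0.050 to 0.0023 for Cyp2c54 and -0.34 to 0.077 for Socs2, and the interaction was -0.26 to 0.065 for Fam222a, -0.24 to 0.0060 for Sult2a7 and -0.16 to 0.11 for Pld1. The Pld1 interaction was also 0.051 with the length and GC trend removed and 0.048 with the block as well. The causes were not tested.

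Deviations of same-numbered KO libraries from their group means correlated at -0.0015, 0.037 and 0.10, and of control libraries at 0.011, -0.020 and -0.029. For libraries of different number the values ran from -0.075 to 0.042 in KO livers and from -0.025 to 0.043 in control livers. With 3 libraries a group, these values cannot decide whether replicate numbers pair the samples. With the replicate number as a block 5357 genes were called in KO livers. Markers of a few CPM are limited by depth: with a filter of 5 CPM, 6 neutrophil markers and 1 cell cycle gene were lower. The calls rest on a spread between libraries whose source the labels do not state.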

Other observations

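The rise of female-biased genes in KO livers on HFD did not extend to every gene of that list. Cyp2b9, Cyp2b13, Cyp2a4 and Cyp2a22 were 8.52, 8.396, 11.1 and 7.99 times as high on HFD as on chow, and the hydroxyacid oxidase gene Hao2 8.57 times. The P450 genes Cyp3a16 and Cyp3a41a had 0 counts in both KO groups, Cyp3a44 had 4 counts on HFD and 2 on chow, and the sulfotransferase genes Sult2a1 and Sult3a1 had 1 and 3 counts on HFD and 0 on chow, each over 3 libraries.

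Cytosolic ribosomal protein genes changed little with HFD in KO livers, where 12 of 31 were lower and 1 higher (median log2 -0.065), whereas in control livers all 31 were lower (median -0.37), and the interaction was positive for 30 of the 31 and negative for none. Nuclear genes of oxidative phosphorylation were 24 higher and 0 lower of 26 in KO livers and 7 higher and 12 lower in control livers, with 21 positive and no negative interactions. The summed level of that list was lowest in KO livers on chow, at 4752 to 4786 CPM. It was 5556 to 5671 CPM in KO livers on HFD, and 5590 to 5660 and 5480 to 5542 CPM in control livers on HFD and on chow. Endoplasmic reticulum and integrated stress response genes were 3 higher and 14 lower of 25 in KO livers and 13 higher and 7 lower in control livers, with 17 negative and 2 positive interactions. The transcript lengths of these lists were not compared with those of other genes. Across the 14762 tested genes with a transcript length, Spearman's rho of the KO diet change with length was -0.14, a description across genes. With the length and GC trend removed the median KO diet change was -0.082 for ribosomal protein genes, 0.22 for nuclear genes of oxidative phosphorylation and -0.21 for stress response genes. In the main setting these medians were -0.065, 0.25 and -0.23.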
